A study of Mus musculus with 16 samples.

Results

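The genes described here encode the enzymes that cross-link collagen or prepare it for cross-linking: the lysyl oxidases Lox, Loxl1, Loxl2, Loxl3 and Loxl4, the transglutaminase Tgm2, and the lysyl hydroxylases Plod1, Plod2 and Plod3. They were taken by the gene name that the array annotation gives a probe, which found all 9 genes, with 17 probes, among 34781 gene names and 55681 probes. The RNA came from alveolar type II cells, the surfactant-making cells of the lung alveolus of C57BL/6 mice, labelled as primary. Cultures stood in hyperoxia (85% O2) or, as the control, in normoxia (21% O2), each for 6 h and for 24 h, and 4 one-colour Agilent expression arrays were made per group, 16 in all. All groups share the strain, and the labels name no genetic change and no other agent. Nothing in the labels says whether the 4 arrays of a group came from separate animals or cultures, so p-values measure the spread between these samples, which may be technical. The arrays of each time shared a slide of their own, and time and slide cannot be told apart. The oxygen groups filled separate rows of both slides, and oxygen and slide row cannot be told apart either.

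Lysyl oxidases are secreted copper enzymes that oxidise lysine and hydroxylysine in collagen and elastin, and the resulting aldehydes condense into the covalent bonds that hold fibres together. The lysyl hydroxylases act earlier, inside the endoplasmic reticulum, where they need iron and ascorbate to add hydroxyl groups to collagen lysines and so set which kind of cross-link can form. Transglutaminase 2, the product of Tgm2, joins glutamine to lysine side chains in matrix and cell proteins. In the lung, fibroblasts and smooth muscle cells are the main known source of matrix, and alveolar epithelium rests on a basement membrane that also holds cross-linked collagen.

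The measured sequence is short, and for some of these genes the probes did not report the same change, so probes of Loxl1, Loxl2 and Plod1 are printed below as deposited with the arrays, in the coordinates of the mouse build mm9. The set shows a pair that gave the same change at 24 h of hyperoxia (Loxl1) and a pair that did not (Plod1, with neither probe called). It also shows the likeness between family members, and each printed probe has a reading frame without a stop codon. The probes of Lox, which also differed at 24 h, are not printed. Capitals mark the bases that the brightest Loxl1 probe and one Loxl2 probe share, 19 of the 32 bases over which both align without gaps. Among all 126 pairs of probes of different genes of the family, the best ungapped match over at least 30 bases was 60.8% of bases. It was 31 of 51 bases, between the second Lox probe and the brightest Loxl1 probe. The median over the pairs was 41.4%. Each probe has 60 bases.
Loxl1, brightest probe, chr9:58138570-58138629, minus strand: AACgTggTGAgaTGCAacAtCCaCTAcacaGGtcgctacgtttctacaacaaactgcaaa
Loxl1, second probe, chr9:58145451-58145510, minus strand: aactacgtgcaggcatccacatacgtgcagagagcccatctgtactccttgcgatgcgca
Loxl2, second probe, chr14:70090017-70090076, plus strand: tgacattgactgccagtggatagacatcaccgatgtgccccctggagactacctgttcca
Loxl2, last probe, chr14:70092141-70092200, plus strand: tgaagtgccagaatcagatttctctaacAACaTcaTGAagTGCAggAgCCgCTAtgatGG
Plod1, brightest probe, chr4:147290037-147291457, minus strand: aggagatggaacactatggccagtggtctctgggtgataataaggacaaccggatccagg
Plod1, second probe, chr4:147302568-147302627, minus strand: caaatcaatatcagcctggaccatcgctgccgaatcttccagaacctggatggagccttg
The listed span of the brightest Plod1 probe is longer than the probe itself, so its ends lie in separate stretches of the genome.

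All 9 genes had a brightest probe well above background on 16 of 16 arrays, and none of these spots was saturated. All 9 were among the 25408 genes tested. Levels are given as log2 signal relative to the 75th percentile of the same array, and probes of different genes cannot be ranked by level. A gene is said to have risen or fallen where limma's test, adjusted by Benjamini-Hochberg over all genes tested, gave a p under 0.05. A log2 difference between groups of n = 4 arrays is given ± SE, with the spread estimated by limma from all 16 arrays. Of the probes on an array, 53.7% to 69.0% were well above background, with the lowest share on normoxia 24 h replicate 3. Of 12 type II cell markers, 11 were above background in every group, if on only 2 of 4 normoxia arrays at 24 h for Sftpa1, and among them was Sftpc, the surfactant protein C gene, whose mean was 3.88 and 4.34 at 6 h and 1.39 and 1.84 at 24 h in normoxia and hyperoxia. Slc34a2, a phosphate transporter gene of type II cells, was above background on 0 of 16 arrays. All 14 markers of fibroblasts and smooth muscle were above background on every array.

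After 24 h of hyperoxia, Tgm2 fell from a mean of 5.76 ± 0.23 (SD, n = 4) in normoxia to 4.73 ± 0.35, Loxl1 fell from 5.62 ± 0.02 to 5.16 ± 0.07, and the brightest Lox probe rose from 4.27 ± 0.09 to 4.69 ± 0.12. Of the 9 genes 1 rose and 2 fell in the fit of all 16 arrays, where 15.5% of all genes tested rose and 12.8% fell. In that fit the family's counts are close to those shares, but the count of fallen genes depended on the fit. It was 4 with the replicate number as a block within time (14.8% of all genes tested) and 5 with the 24 h arrays alone (13.9%). With quantile normalisation it was 1. The rise of Lox was seen on 1 of its 2 probes. The median log2 difference was -0.23 over the 9 genes and 0.01 over all genes.

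**Figure D1:**
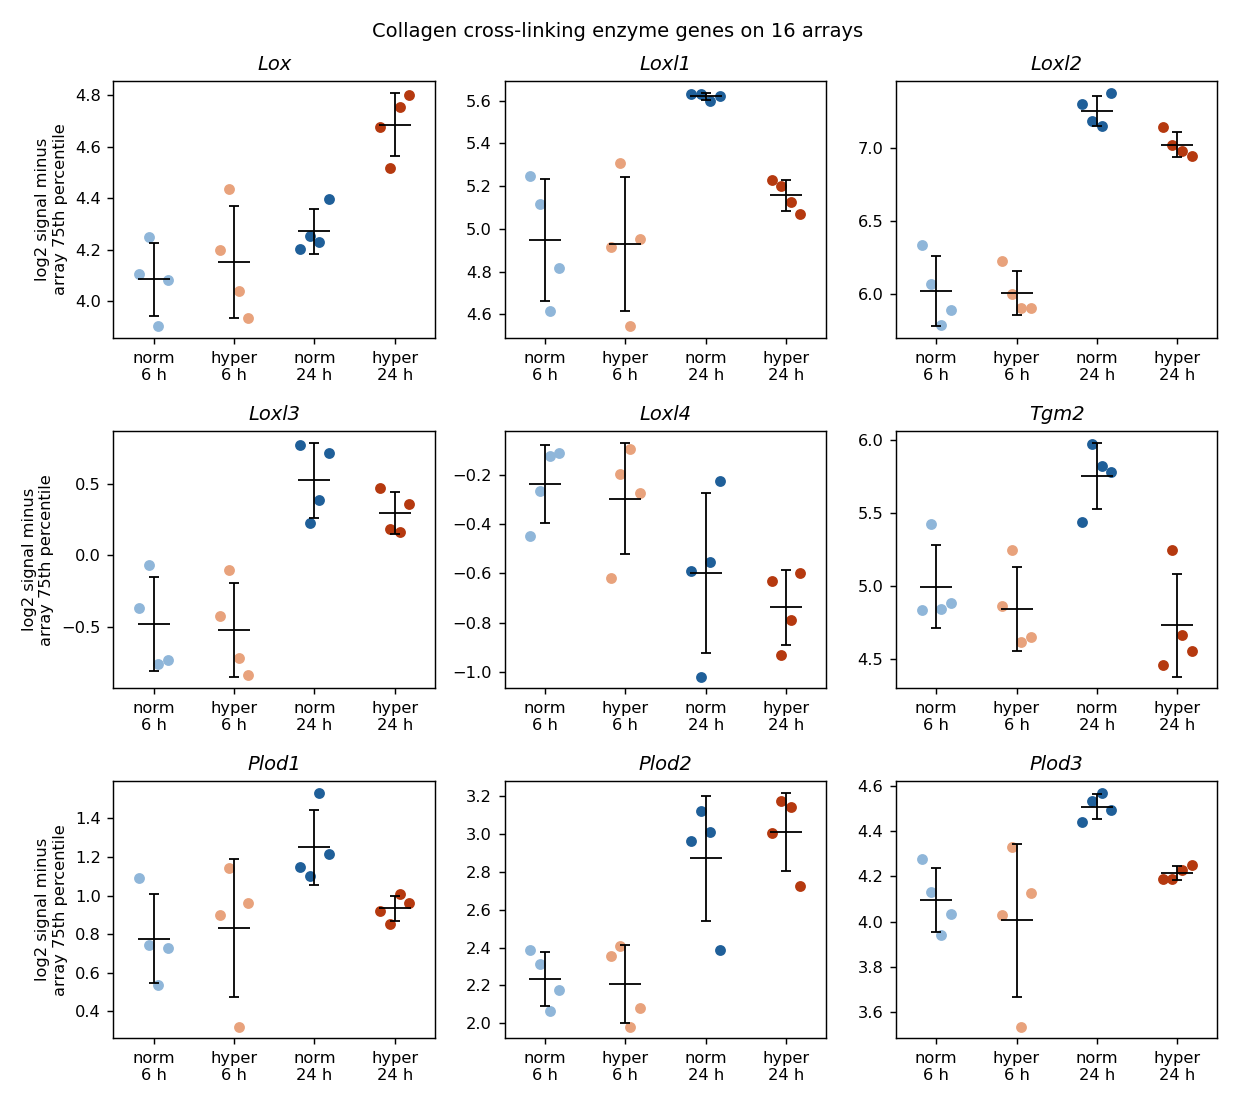
Each panel plots 1 gene on the 16 arrays, as log2 signal minus the array's 75th percentile, for normoxia and hyperoxia at 6 h and 24 h; points are arrays in replicate order, and bars are the group mean ± SD. At 24 h Tgm2 lay between 5.44 and 5.98 in normoxia and between 4.46 and 5.24 in hyperoxia, while Lox was higher on every hyperoxia array.

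Tgm2 showed the largest difference of the family. In normoxia at 24 h its level was 5.44, 5.98, 5.82 and 5.79 in replicates 1 to 4, and in hyperoxia it was 4.46, 5.24, 4.66 and 4.55. The groups did not overlap, and every hyperoxia array lay below the normoxia array of the same number, by 0.73 to 1.23. The log2 difference was -1.03 ± 0.19, 2.04-fold lower (95% confidence interval -1.44 to -0.61, limma adjusted p = 0.00105). A second Tgm2 probe gave -0.97 ± 0.21 (limma adjusted p = 0.0026). Replicate 2 was the highest Tgm2 value in each of the 4 groups. The call held when any single array was left out, with a limma adjusted p of at most 0.00469.

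Loxl1 encodes the lysyl oxidase known for its part in elastic fibre maintenance. Its level in normoxia at 24 h was 5.63, 5.63, 5.60 and 5.62, and in hyperoxia it was 5.23, 5.20, 5.13 and 5.07. The normoxia arrays lay within a narrow band, all hyperoxia arrays lay below it, and the fall was -0.46 ± 0.15, or 1.38-fold (limma adjusted p = 0.0278). The second probe, printed above, gave -0.49 ± 0.17 (limma adjusted p = 0.0389). The call was lost, with the direction kept, when normoxia replicate 1, 2 or 4 or hyperoxia replicate 3 or 4 was left out (limma adjusted p = 0.0559, 0.0551, 0.0537, 0.0613 and 0.0676). It was also lost with quantile normalisation (limma adjusted p = 0.0693) and in the series table that the authors deposited (limma adjusted p = 0.0694). The SE in these fits rests on the arrays of both times, and Loxl1 varied more at 6 h. Its SD in normoxia and hyperoxia was 0.02 and 0.07 at 24 h, against 0.29 and 0.31 at 6 h. In the fit of the 24 h arrays alone, described below, the fall was called.

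Lox encodes the founding lysyl oxidase, which acts on fibrillar collagen and elastin. Its brightest probe read 4.20, 4.25, 4.23 and 4.40 in normoxia at 24 h and 4.68, 4.52, 4.75 and 4.80 in hyperoxia. All 4 hyperoxia arrays were above all 4 normoxia arrays, and the rise was 0.42 ± 0.11, or 1.33-fold (limma adjusted p = 0.00858). A second Lox probe, which lies 5′ of the brightest one, did not show it. That probe read 3.52, 3.46, 3.24 and 3.68 in normoxia and 3.46, 3.34, 3.33 and 3.52 in hyperoxia, with overlapping groups. Its difference was -0.06 ± 0.14 (limma adjusted p = 0.79), and the mean of both probes gave 0.18 (limma adjusted p = 0.292).

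**Figure D2:**
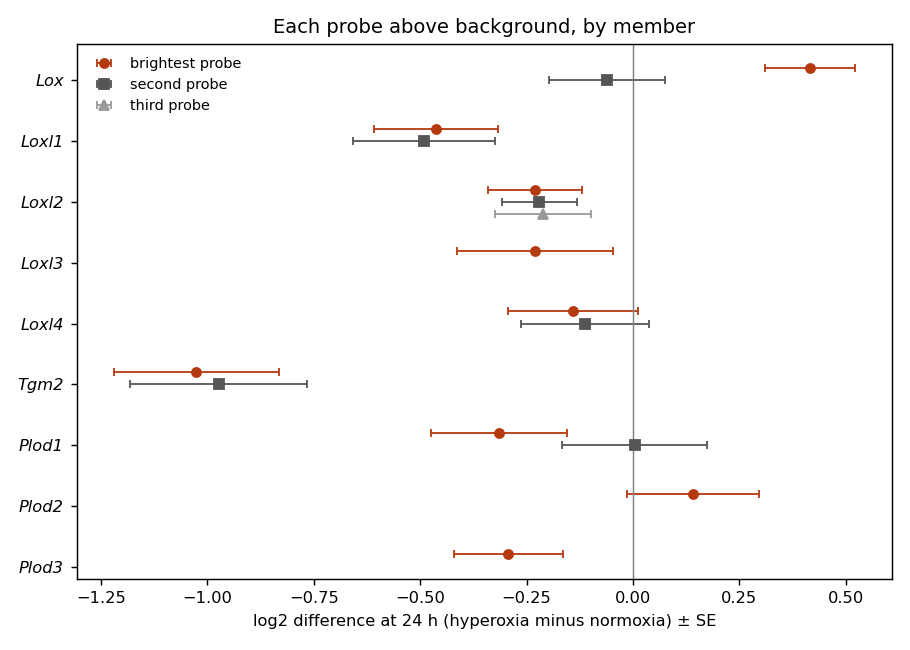
The log2 difference at 24 h (hyperoxia minus normoxia, x axis) is plotted for each probe above background of each gene, with bars of ± SE; circles are the brightest probe, squares the second brightest and triangles the next. The probes of Tgm2, Loxl1, Loxl2 and Loxl4 lie close together, whereas those of Lox (0.42 and -0.06) and Plod1 (-0.31 and 0.00) lie apart.

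The remaining lysyl oxidases did not pass at 24 h in the fit that pools the arrays of both times. Loxl2, whose product is known to cross-link collagen IV of basement membranes, read 7.30, 7.18, 7.15 and 7.38 in normoxia and 7.14, 7.02, 6.98 and 6.95 in hyperoxia. The hyperoxia arrays were all lower, yet the difference of -0.23 ± 0.11 missed the threshold (95% confidence interval -0.47 to 0.01, limma adjusted p = 0.142). The other Loxl2 probes, both printed above, gave -0.22 ± 0.09 (limma adjusted p = 0.079) and -0.21 ± 0.11 (limma adjusted p = 0.189). Loxl3 lay between 0.23 and 0.77 in normoxia and between 0.17 and 0.47 in hyperoxia, a difference of -0.23 ± 0.18 (limma adjusted p = 0.397). Loxl4 lay between -1.02 and -0.23 in normoxia and between -0.93 and -0.60 in hyperoxia, a difference of -0.14 ± 0.15 (limma adjusted p = 0.548). The groups overlapped for both of these genes.

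None of the lysyl hydroxylase genes passed at 24 h in the fit that pools the arrays of both times. Plod3, whose product also adds sugars to hydroxylysine, read 4.44, 4.53, 4.57 and 4.49 in normoxia and 4.19, 4.19, 4.23 and 4.25 in hyperoxia. Its groups did not overlap, and the difference was -0.29 ± 0.13 (95% confidence interval -0.57 to -0.02, limma adjusted p = 0.106). The SD of Plod3 in normoxia and hyperoxia was 0.06 and 0.03 at 24 h, against 0.14 and 0.34 at 6 h. With the 24 h arrays alone Plod3 fell, at the same difference ± 0.05 (limma adjusted p = 0.00349). The brightest Plod1 probe lay between 1.10 and 1.53 in normoxia and between 0.85 and 1.01 in hyperoxia, also without overlap, at -0.31 ± 0.16 (limma adjusted p = 0.163). The second Plod1 probe read a mean of -1.35 in both groups, with a difference of 0.00 ± 0.17 (limma adjusted p = 0.991). Plod2, which encodes the hydroxylase of the collagen telopeptides, lay between 2.39 and 3.12 in normoxia and between 2.72 and 3.17 in hyperoxia (0.14 ± 0.16, limma adjusted p = 0.555). Of the 9 genes, 5 had all hyperoxia arrays below all normoxia arrays and 1 had them above, where 15.3% and 17.9% of all genes tested did.

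At 24 h arrays of the same number, which is also the slide column, deviated together, with residual correlations of 0.24 to 0.34. All 4 pairs were lower in hyperoxia for Loxl1, Loxl2, Loxl3, Tgm2, Plod1 and Plod3, and all 4 were higher for Lox and Plod2. The share of all genes tested whose 4 pairs went one way was not taken, so these pairs cannot be read as a trait of the family. Loxl3 differed by -0.36 to -0.04 within pairs although its groups overlapped. With the replicate number as a block within each time, Loxl2 (limma adjusted p = 0.0332) and Loxl3 (limma adjusted p = 0.0266) also fell. The count then was 1 higher and 4 lower, where 18.6% and 14.8% of all genes tested were called. Plod3 (limma adjusted p = 0.0519) and Plod1 (limma adjusted p = 0.0633) missed the threshold. In a fit of the 8 arrays of 24 h alone, Loxl2 (limma adjusted p = 0.0462), Plod1 (limma adjusted p = 0.0461) and Plod3 (limma adjusted p = 0.00349) fell beside Loxl1 and Tgm2, where 16.4% of all genes tested were higher and 13.9% lower.

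Markers of other cell types were set beside these values at 24 h. The summed linear signal of the 14 fibroblast and smooth muscle markers, relative to the 75th percentile, was 1720 to 1968 in normoxia and 1586 to 1688 in hyperoxia. Of them 1 rose, Tcf21 (0.87), and 2 fell, Des (-1.62) and Cnn1 (-0.45). The median log2 difference of the 14 was -0.00, and in the group means 5 bright genes (Col1a2, Tagln, Acta2, Col1a1 and Cnn1) made up 93.7% of the sum in normoxia and 92.6% in hyperoxia. Dimmer markers such as Pdgfra (0.57), Dcn (0.55) and Lum (0.53) had positive differences that did not pass. The summed type II markers were 40.1 to 46.2 in normoxia and 29.8 to 37.5 in hyperoxia, and Lamp3 made up 47.8% and 31.3% of them. Its mean was 4.34 and 3.30. Of the 11 tested 1 rose and 4 fell, with a median of -0.08, where 15.5% of all genes tested rose and 12.8% fell. Means of Sftpa1, Sftpc, Sftpd and Abca3 were higher in hyperoxia, and those of the other tested type II markers were lower. The summed macrophage markers were 57.8 to 73.5 and 71.1 to 78.8, and Itgam alone made up 88.3% and 88.9% of them. Of the 8 macrophage markers 1 rose, Cd68 (1.02), and none fell, and Itgam did not pass (0.26, limma adjusted p = 0.223). The part of these cells in the differences of Tgm2, Loxl1 and Lox was not tested, and in RNA of a whole culture fewer cells of a type and less RNA per cell cannot be told apart.

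After 6 h of hyperoxia none of the 9 genes had risen or fallen. In the same comparison 0.236% of all genes tested rose and 0.0905% fell by limma's adjusted p. At an unadjusted p under 0.05 the count of the family was 0, and 1024 genes were higher and 851 lower among all 25408 tested. The log2 differences ran from -0.15 ± 0.19 for Tgm2 to 0.07 ± 0.11 for Lox, with a median of -0.03, and the smallest limma adjusted p was 0.959. Tgm2 read 4.83, 5.42, 4.84 and 4.88 in normoxia and 4.87, 5.24, 4.62 and 4.65 in hyperoxia at 6 h. The groups overlap, and each has its highest value in replicate 2. Loxl1 lay between 4.61 and 5.25 in normoxia and between 4.54 and 5.31 in hyperoxia. Lox lay between 3.90 and 4.25 in normoxia and between 3.94 and 4.44 in hyperoxia. The groups overlapped in all 9 genes at this time, and 4.32% of all genes tested had groups without overlap. With such small shares over all genes, counts of 0 among 9 do not set the family apart. The 95% confidence intervals reached from -0.57 (Tgm2) to 0.40 (Plod1), and changes within each interval are compatible with the data. A fall of Tgm2 as large as that at 24 h lies outside its interval. The intervals do not give the smallest change that the adjusted test could call with 4 arrays per group.

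**Figure D3:**
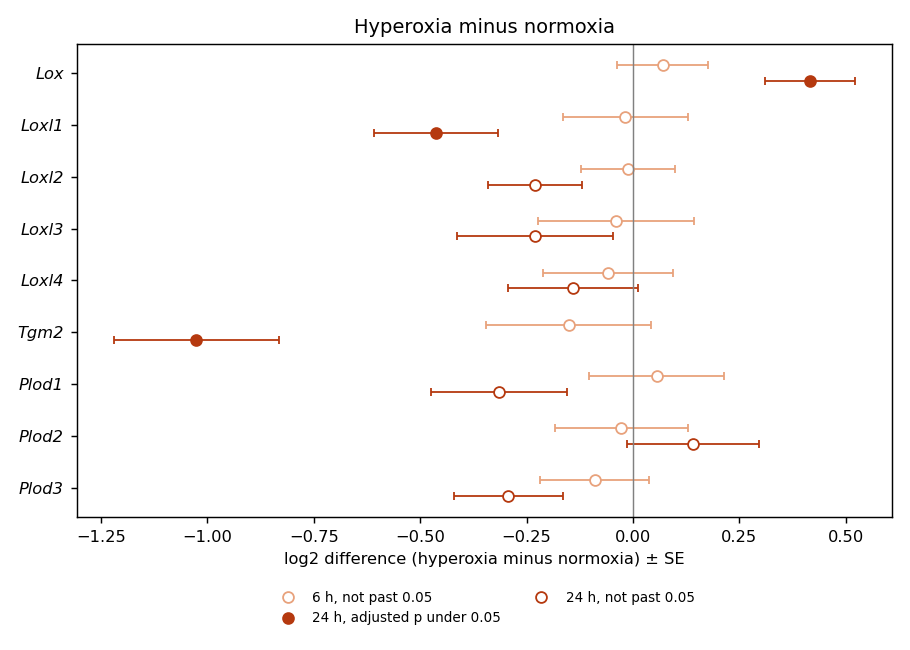
The log2 difference between hyperoxia and normoxia (x axis) is plotted for each gene at 6 h (light) and 24 h (dark), with bars of ± SE; filled points passed an adjusted p of 0.05. All 6 h values lie between -0.15 and 0.07, and at 24 h Lox (0.42), Loxl1 (-0.46) and Tgm2 (-1.03) are filled.

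Whether the effect of hyperoxia changed between 6 h and 24 h was tested as a difference of differences. None of the 9 genes passed, where 6.62% of all genes tested were higher and 5.63% lower by limma's adjusted p. At an unadjusted p under 0.05 the count was 1 higher and 2 lower, against 3423 higher and 2993 lower among all 25408 genes tested. Tgm2 came nearest, at -0.87 ± 0.27 (95% confidence interval -1.46 to -0.29, limma adjusted p = 0.0523). Loxl1 stood at -0.45 ± 0.21 (limma adjusted p = 0.195) and Lox at 0.35 ± 0.15 (limma adjusted p = 0.163). The remaining 6 genes lay between -0.37 (Plod1) and 0.17 (Plod2). The Tgm2 value passed with the replicate number as a block within time (limma adjusted p = 0.00282), and Loxl1 then also passed (limma adjusted p = 0.0426), where 7.1% of all genes tested were lower. At 6 h the residual correlation of the partners was 0.25 to 0.35 in replicates 1 to 3 and 0.0863 in replicate 4. That last value is just under the limit of 0.1, so only the 24 h arrays met the rule for pairing in every replicate. Tgm2 also passed without normoxia 24 h replicate 1 (limma adjusted p = 0.0384), hyperoxia 24 h replicate 2 (limma adjusted p = 0.014), normoxia 6 h replicate 2 (limma adjusted p = 0.0234) or hyperoxia 6 h replicate 3 (limma adjusted p = 0.0344). Without hyperoxia 6 h replicate 3, Loxl1, Plod1 and Plod3 passed as well (limma adjusted p = 0.041, 0.0422 and 0.0412). The calls over all genes then grew too, to 2708 higher and 2263 lower, from 1683 and 1431 with all arrays. Without hyperoxia 6 h replicate 2 Lox passed (limma adjusted p = 0.0461).

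From 6 h to 24 h in normoxia most of the family rose. The 7 genes Loxl1, Loxl2, Loxl3, Tgm2, Plod1, Plod2 and Plod3 rose and none fell, where 20.6% of all genes tested rose and 23.5% fell. The median log2 difference was 0.64 over the 9 genes and -0.02 over all genes. In the same 7 genes every 24 h array was above every 6 h array, as it was for 21.9% of all genes tested. The slide is part of each of these differences. With normexp background correction 70.0% of all calls were higher in place of 46.7%, the median of all genes moved to 0.10, and the family had 7 genes higher and 1 lower.

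Loxl2 rose on all 3 of its probes. The 6 h normoxia arrays of the brightest probe read 6.33, 6.06, 5.78 and 5.89, against 7.15 to 7.38 at 24 h, a rise of 1.23 ± 0.11 or 2.35-fold (limma adjusted p = 5.3e-06). The other probes rose by 0.84 ± 0.09 and 0.96 ± 0.11. Loxl3 went from a range of -0.76 to -0.07 to one of 0.23 to 0.77 (1.00 ± 0.18, 2.01-fold, limma adjusted p = 0.000688). Loxl1 rose by 0.67 ± 0.15 (limma adjusted p = 0.00223) on its brightest probe and by 0.78 ± 0.17 on the other. Lox (0.19 ± 0.11, limma adjusted p = 0.168) and Loxl4 (-0.36 ± 0.15, limma adjusted p = 0.0694) missed the threshold, and Loxl4 was the member with a negative value. Loxl4 passed as a fall with normexp background correction (limma adjusted p = 0.0233), with the replicate number as a block over both slides (limma adjusted p = 0.0471), and without normoxia 24 h replicate 4 (limma adjusted p = 0.0184) or normoxia 6 h replicate 1 (limma adjusted p = 0.04995).

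Tgm2 rose over time in normoxia by 0.76 ± 0.19, or 1.70-fold (limma adjusted p = 0.00612), from 4.83 to 5.42 at 6 h to 5.44 to 5.98 at 24 h. Its lowest 24 h array thus stood just above its highest 6 h array. Among the hydroxylases Plod2 rose by 0.64 ± 0.16 (limma adjusted p = 0.00475), Plod1 by 0.47 ± 0.16 (limma adjusted p = 0.0262) and Plod3 by 0.41 ± 0.13 (limma adjusted p = 0.0179). The call of Plod1 was lost without normoxia 24 h replicate 3 or without normoxia 6 h replicate 2, 3 or 4 (limma adjusted p up to 0.082), for its second probe (0.44 ± 0.17, limma adjusted p = 0.0502) and for the mean of its probes (0.29, limma adjusted p = 0.2). The call of Plod3 was lost without normoxia 6 h replicate 3 (limma adjusted p = 0.0552), with quantile normalisation (limma adjusted p = 0.0848) and in the authors' deposited table (limma adjusted p = 0.085).

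Over the same time in hyperoxia, 4 of the 9 genes, Lox, Loxl2, Loxl3 and Plod2, rose and Loxl4 fell, where 25% of all genes tested rose and 27.4% fell. With single arrays left out the count of genes that rose ran from 4 to 6 in hyperoxia and from 5 to 7 in normoxia. Normexp background correction moved the share of higher calls over all genes from 47.7% to 62.9% and left the family's counts at 4 and 1. The median log2 difference was 0.23 over the 9 genes and -0.02 over all genes. Loxl2 rose by 1.01 ± 0.11 (2.02-fold, limma adjusted p = 5.05e-06), Loxl3 by 0.81 ± 0.18 (limma adjusted p = 0.00204) and Plod2 by 0.80 ± 0.16 (limma adjusted p = 0.000668). In these 3 genes and in Lox all 24 h arrays were above all 6 h arrays, as in 21.2% of all genes tested. Lox rose by 0.53 ± 0.11 (limma adjusted p = 0.000836) on its brightest probe, but by 0.23 ± 0.14 on the second (limma adjusted p = 0.171). Loxl4 fell by 0.44 on the log2 scale (SE 0.15, limma adjusted p = 0.0254), with overlapping groups. Its second probe gave the same size (-0.44 ± 0.15, limma adjusted p = 0.0226). The Loxl4 call was lost without hyperoxia 24 h replicate 2 or 3 or hyperoxia 6 h replicate 2, 3 or 4 (limma adjusted p up to 0.073).

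Genes that rose in normoxia and did not pass in hyperoxia were Loxl1 (0.23 ± 0.15, limma adjusted p = 0.205), Tgm2 (-0.11 ± 0.19, limma adjusted p = 0.646), Plod1 (0.10 ± 0.16, limma adjusted p = 0.607) and Plod3 (0.21 ± 0.13, limma adjusted p = 0.185). The test of that contrast is the difference of differences given above, which none of them passed. Loxl1 and Plod3 passed in hyperoxia without hyperoxia 6 h replicate 2 (limma adjusted p = 0.0428 and 0.0401).

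**Figure D4:**
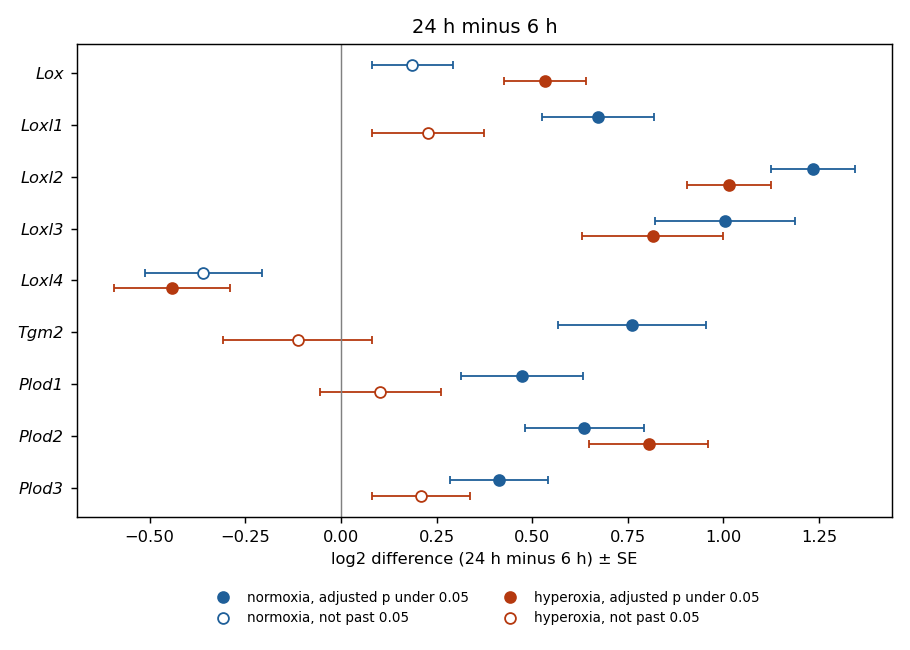
The log2 difference between 24 h and 6 h (x axis) is plotted for each gene in normoxia (blue) and hyperoxia (red), with bars of ± SE; filled points passed an adjusted p of 0.05. Loxl2, Loxl3 and Plod2 are filled in both, and Tgm2 lies at 0.76 in normoxia and at -0.11 in hyperoxia.

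Of the 14 fibroblast and smooth muscle markers, 8 rose from 6 h to 24 h in each oxygen group and none fell, with medians of 0.57 and 0.51. Over all genes tested 20.6% rose and 23.5% fell in normoxia, and 25% rose and 27.4% fell in hyperoxia. The others included Lum (-1.13 in normoxia and -0.58 in hyperoxia), Tcf21 (-0.32 and 0.54) and Pdgfra (-0.24 and 0.45), which did not pass. The summed linear signal of the 14 was 986 to 1192 in normoxia and 931 to 1223 in hyperoxia at 6 h, against 1720 to 1968 and 1586 to 1688 at 24 h, and rested on the same 5 bright genes. The summed type II markers went the other way, from 61.2 to 75.9 and 57.9 to 82.4 at 6 h to the values given above. Of the 11 tested, 1 rose and 7 fell in normoxia, and 0 rose and 8 fell in hyperoxia. The part of either in the rise of Loxl2, Loxl3 and Plod2 was not tested.

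Other genes of collagen maturation were followed in lists. Of 15 tested genes for enzymes and chaperones that modify collagen in the endoplasmic reticulum, 1 rose and 7 fell after 24 h of hyperoxia, with a median of -0.32, beside the 15.5% and 12.8% of all genes. The count of fallen genes was 9 with the replicate block within time, which called 14.8% of all genes tested lower. It was 5 with quantile normalisation, normexp correction or the authors' deposited table. P4ha1 (-0.77 ± 0.11, limma adjusted p = 0.000136) and P4ha2 (-0.60 ± 0.11, limma adjusted p = 0.000958), which encode catalytic subunits of prolyl 4-hydroxylase, fell. Serpinh1, the gene of the collagen chaperone HSP47, fell by 0.65 on the log2 scale (SE 0.08, limma adjusted p = 2.22e-05). Tmem38b, which encodes a cation channel of the endoplasmic reticulum, was the gene of this list that rose (0.73 ± 0.12, limma adjusted p = 0.000371, or 0.34 with normexp correction). Over time 10 of the 15 rose in normoxia and 4 in hyperoxia, with 1 fallen in each, but with quantile normalisation 2 rose and 2 fell in hyperoxia. Over all genes tested 20.6% rose and 23.5% fell in normoxia, and 25% rose and 27.4% fell in hyperoxia. The count in hyperoxia is thus close to the share of all genes that rose. The difference of differences called 1 higher and 3 lower, where 6.62% of all genes tested were higher and 5.63% lower. With the replicate block within time it called 1 higher and 5 lower, where 7.1% of all genes tested were lower.

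Of 13 genes of fibrillar and network collagens, Col2a1 rose (1.75 ± 0.34, limma adjusted p = 0.00137, or 1.02 with normexp correction) and Col6a3 fell (-0.63 ± 0.16, limma adjusted p = 0.00872, with overlapping groups) at 24 h, and the median was -0.01, against 15.5% risen, 12.8% fallen and a median of 0.01 over all genes. With the replicate block within time, normexp correction or the arrays of 24 h alone, 2 rose and 2 fell. Over all genes tested the block called 18.6% higher and 14.8% lower, and the 24 h arrays alone 16.4% and 13.9%. Col1a1 and Col1a2, the chains of collagen I on which lysyl oxidases act, differed by -0.15 ± 0.08 and -0.31 ± 0.12 (limma adjusted p = 0.196 and 0.0751). Over time 10 of the 13 rose in each oxygen group, with medians of 0.70 and 0.68. In the same comparisons 20.6% of all genes tested rose in normoxia and 25% in hyperoxia, and the slide is part of each difference. Of 17 elastic fibre genes Fbn2, which encodes a fibrillin, was the gene called at 24 h (-0.43 ± 0.13, limma adjusted p = 0.0197), and its call was lost without replicate 1 of either oxygen group (limma adjusted p up to 0.0628). With the block within time 4 of these genes fell, beside 14.8% of all genes tested. The elastin gene Eln differed by -0.07 ± 0.40 (limma adjusted p = 0.921).

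The counts of the lists that follow stand beside 15.5% of all genes tested that rose at 24 h and 12.8% that fell. Of 11 genes that process procollagen or activate lysyl oxidase, Adamts14, a procollagen N-proteinase gene (-0.81 ± 0.16, limma adjusted p = 0.00164), and Pcolce2, a gene for an enhancer of the C-proteinase (-0.61 ± 0.12, limma adjusted p = 0.0014), fell at 24 h. Tll1, which encodes a tolloid proteinase related to BMP1, rose (0.46 ± 0.08, limma adjusted p = 0.000824), and missed the threshold with the mean of its probes (limma adjusted p = 0.0728). Bmp1, whose product cleaves the propeptide from lysyl oxidase, differed by -0.08 ± 0.09 (limma adjusted p = 0.58). Of 5 other transglutaminase genes tested, Tgm1 fell (-1.10 ± 0.30, limma adjusted p = 0.0129, or -0.49 with normexp correction), with 3 of 4 hyperoxia arrays above background. Of 7 genes that supply copper, iron or ascorbate, 3 rose and 0 fell: the transferrin receptor gene Tfrc (0.91 ± 0.14, limma adjusted p = 0.000212) and the copper chaperone genes Ccs (0.35 ± 0.07, limma adjusted p = 0.00106) and Atox1 (0.24 ± 0.06, limma adjusted p = 0.0103). Atp7a, which encodes the pump that loads copper onto secreted enzymes, differed by 0.13 ± 0.08 (limma adjusted p = 0.271). After 6 h of hyperoxia limma's adjusted p called 0 genes in each of these lists, and at an unadjusted p under 0.05 there was 1 higher gene in the processing list and 1 in the copper, iron and ascorbate list.

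**Figure D5:**
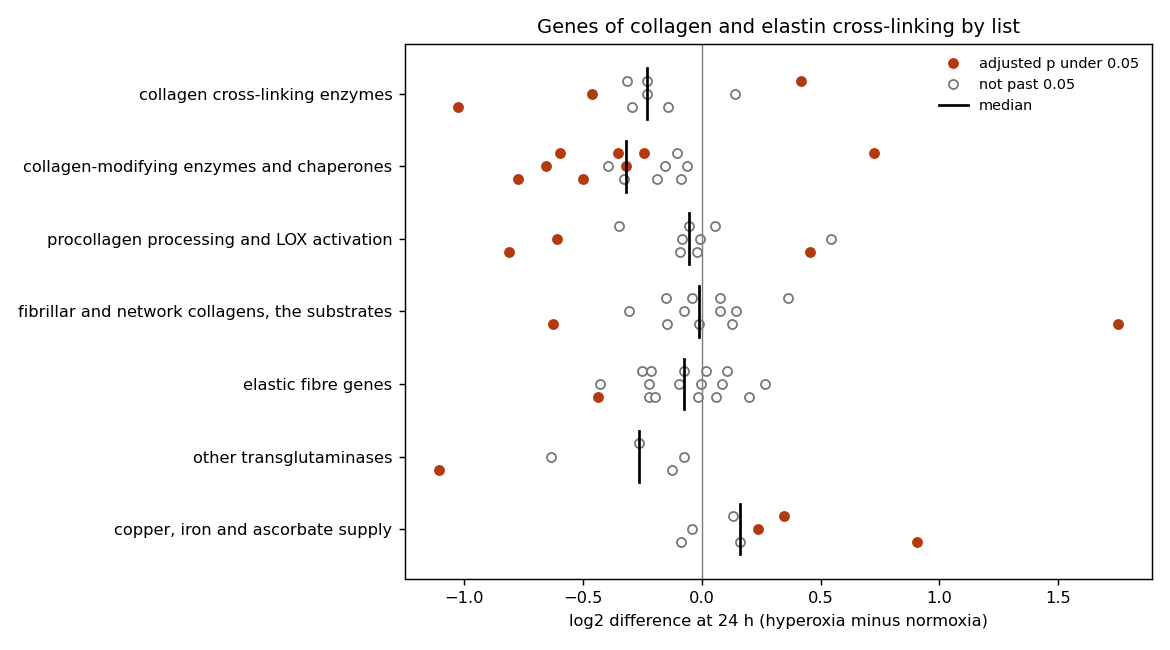
Each point is the log2 difference at 24 h (hyperoxia minus normoxia, x axis) of 1 tested gene, by list (y axis); filled points passed an adjusted p of 0.05 and vertical lines are list medians. The cross-linking enzymes have a median of -0.23 and the collagen-modifying enzymes and chaperones one of -0.32, and the collagens have a median of -0.01 and run from -0.63 (Col6a3) to 1.75 (Col2a1).

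Loxl2 had the widest range of group means in the family, 1.25. The tested genes whose values followed it most closely over the 16 arrays were Arsa, the gene of arylsulfatase A (Pearson r = 0.995), Tfpi, which encodes an inhibitor of coagulation (r = 0.987), the lipoprotein receptor gene Vldlr (r = 0.981) and Ccn4, which encodes a secreted matrix-associated protein (r = 0.98). The fifth was an array probe without a gene symbol (r = 0.977). Within the family Loxl3 followed Loxl2 most closely (r = 0.928) and Loxl4 ran against it (r = -0.70). These correlations are descriptions: the arrays fall into 2 sets by time and slide, and each r includes that division.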

How the data were processed

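Each array has a text file of Agilent Feature Extraction 10.7.3.1, deposited by the authors. Its processed signals are intensities after background subtraction within the array, per the file headers, with no normalisation between arrays. Raw spot and background intensities of the same deposited files served 1 alternative. The series table that the authors deposited holds log2 values of 43964 probes, with a median of 7.19 on each array, which correlated at 0.997 to 1.00 with the same array's processed signal in log2. Its normalisation is not given in the sources used here, and it served as an alternative. It gave nearly the same values as quantile normalisation, such as -0.426 in both for Loxl1 at 24 h. A call lost in both is therefore not lost in separate checks.

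Each array has 62976 spots, 59305 of them no controls, 106 to 200 with an outlier mark and none saturated. At the 75th percentile the signal reached 899 to 1021 on the 6 h arrays and 556 to 801 on the 24 h arrays. The number of arrays limits the precision. No 2 arrays were duplicates, the highest correlation of an array with another being 0.986 to 0.992. Spots of a probe were averaged, log2 signals were shifted so that each array's 75th percentile over non-control probes was 0, and each gene was its brightest probe. Testing required that probe to be well above background on 3 or 4 arrays of some group. Names came from RefSeq through accession (27428 probes), symbol (3483) or older symbol (507), and 24263 probes kept the file's name.

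The tests used limma 3.58.1 in R 4.3.3, with a mean for each group, all 16 arrays in the fit (residual degrees of freedom 12, prior 2.23), 5 two-sided contrasts and Benjamini-Hochberg adjustment over 25408 genes. A second probe was swapped in for its gene as an alternative chosen after seeing the data. The other alternatives were normexp background correction (offset 50), quantile normalisation, the deposited table, no filter or a filter on all 16 arrays, the mean over probes, the arrays compared alone, 2 replicate blocks and leaving out each array. The code was tested on simulated data. Residuals of arrays with the same number had correlations between the oxygen groups of 0.25, 0.34, 0.24 and 0.26 for 24 h, above the limit of 0.1 for pairing, of 0.25, 0.25, 0.35 and 0.0863 for 6 h, and of 0.0039 to 0.084 between times. The replicate number is the slide column.

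The 9 genes, the lists and the markers were chosen with earlier results of these data known. The rule named all 9 genes, up to 4 called genes with the largest change of each list at 24 h, and the 5 genes most like the member with the widest range. Col1a1, Col1a2, Eln, Bmp1, Atp7a and the cell type markers given by name, such as Tcf21, Des, Cnn1, Sftpc, Lamp3 and Slc34a2, were named beyond it. Of the fibroblast markers, Col1a1, Col1a2, Col3a1, Dcn and Mfap4 also stand in other lists. Colgalt2, Tll2, Tgm5, Tgm7, Epb42 and Slc23a1 were listed but not tested, being too dim. Type I markers summed to 63.6 to 83.6 and endothelial markers to 14.0 to 21.8 over all arrays.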

Additional observations from a re-analysis of the deposited data

Results flagged for a closer look

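Tgm2 in normoxia 6 h replicate 2 stood apart from the other arrays of its group, at 5.42 against 4.83 to 4.88, a gap of 0.915 of the group's range where Dixon's limit for 4 samples is 0.829. It was the 1 value so found among 36 combinations of gene and group, and chance gives about 1 in 20. Tgm2 was also highest in replicate 2 of the other 3 groups. Without this array the difference of the hyperoxia effects on Tgm2 was -1.02 (limma adjusted p = 0.0234).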

How the results depend on the processing

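At 24 h of hyperoxia the family had 1 gene higher and 2 lower. The lower count was 1 with quantile normalisation and in the deposited table, 4 with a replicate block within time and 5 with the arrays of that time alone, and the higher count was 0 with the mean of probes or the second probe. There Lox read -0.061 and Plod1 0.00369 on the second probe. In the difference of effects the lower count was 1 with normexp correction, the filter on all arrays or a replicate block over both slides, and 2 with the block within time. Over time in normoxia 1 gene fell with normexp correction or the block over both slides. The block changed no other call of the 9 genes. At 6 h, where no gene passed, the mean of probes gave Lox -0.00748, Loxl1 0.031 and Plod1 -0.11, and the second probe gave Lox -0.084 and Loxl1 0.080.

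Leaving out 1 array at a time, the family's lower count ran from 1 to 2 at 24 h and from 0 to 1 over time in each oxygen group, and in the difference the counts ran from 0 to 1 higher and 0 to 4 lower. Values that changed sign were Plod1 (-0.068 to 0.21) and Tgm2 (-0.28 to 0.020) over time in hyperoxia, Plod2 at 24 h (-0.019 to 0.24) and Loxl4 in the difference (-0.22 to 0.042). At 6 h they were Lox (-0.026 to 0.14), Loxl1 (-0.14 to 0.11), Loxl2 (-0.089 to 0.095), Loxl3 (-0.18 to 0.10), Loxl4 (-0.13 to 0.048), Plod1 (-0.049 to 0.23), Plod2 (-0.095 to 0.047) and Plod3 (-0.20 to 0.067). None of these had passed. Over all genes the 6 h counts ran from 33 to 132 higher and 11 to 61 lower, and those of the difference from 1293 to 2708 and 1159 to 2263.

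Over all genes at 6 h, 37 were lower with normexp correction, 39 with quantile normalisation and 37 in the deposited table, and the arrays of 6 h alone gave 21 higher and 8 lower. Over time normexp correction called 8514 higher and 3641 lower in normoxia and 7812 and 4612 in hyperoxia, against 5237 and 5980, and 6350 and 6954. It moved the median of all genes from -0.02 to 0.10 in normoxia and to 0.08 in hyperoxia, and the share of higher calls from 46.7% to 70.0% in normoxia and from 47.7% to 62.9% in hyperoxia. The family's higher counts over time stayed at 7 and 4 there. The cause of each change was not tested. Of the values of single genes, 396 kept their direction and side of the threshold under other settings and 27 did not, and with an array left out 383 did and 49 did not.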
